A study of Mus musculus with 10 samples.

Results

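Cathepsins are the peptidases of the lysosome, and the 10 genes described here are Ctsa, Ctsb, Ctsc, Ctsd, Ctsf, Ctsh, Ctsk, Ctsl, Ctss and Ctsz. They were chosen by gene symbol, from the 24421 different symbols in the count tables, and each of the 10 symbols stood on 1 line of every table. All 10 had enough reads to pass the filter on low counts, which kept 18727 genes for testing.

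Cathepsins are made as inactive proenzymes, tagged with mannose 6-phosphate in the Golgi and delivered to acidic endosomes and lysosomes, where the propeptide is cut off. Most members are cysteine peptidases related to papain, while cathepsin D is an aspartic peptidase and cathepsin A a serine carboxypeptidase. In microglia, the resident macrophages of the brain, they break down proteins taken up by phagocytosis and trim antigens for MHC class II. Cystatins hold the cysteine cathepsins in check, and factors of the MiT/TFE family switch on many lysosomal genes together.

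Microglia were isolated from the cortex for RNA sequencing, with 3 libraries for WT mice, 4 for APP/PS1 mice and 3 for the N-AS-injected transgenic mice (APP/PS1+N-AS). All mice were 9 months old, and each library came from a pool of 2 mice. APP/PS1 mice overexpress transgenes for human APP with the Swedish mutation and for mutant presenilin 1, and they model the amyloid of Alzheimer's disease. N-AS is N-acetyl sphingosine, a lipid made by sphingosine kinase 1, and it was injected subcutaneously at 30 mg/kg each day for 8 weeks from 7 months of age. The study describes its untreated APP/PS1 mice as having received vehicle, and the sources used here do not say whether WT mice did. Cells were enriched by papain digestion and a density gradient, with no sort, so other brain cells could remain. In bulk RNA of this kind, fewer cells of a type and less RNA per cell cannot be told apart.

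The libraries held 8805804 to 19432075 counted reads. Microglial markers were present in all of them. The summed level of 12 markers, as CPM (reads scaled to a common library total), ranged over 684 to 911 in the WT group, over 1562 to 1961 in APP/PS1 libraries, and over 1067 to 1375 with N-AS. Markers of neurons (10 genes, 3084 to 6181 CPM over all libraries) and astrocytes (8 genes, 2379 to 4087) were abundant too, with 0 and 1 of them called in APP/PS1 against WT. The 1 was Gfap, the filament gene of reactive astrocytes, at 10.9 to 17.6 CPM in WT, 499 to 923 CPM in APP/PS1 and 76.3 to 340 CPM in APP/PS1+N-AS libraries (log2 fold change of APP/PS1 over WT 5.65, edgeR adjusted p = 0.000545). Its groups stood in the same order as those of 8 cathepsins, without overlap. Of 10 oligodendrocyte markers, 3 fell in APP/PS1 compared with WT libraries, and their sum was 2472 to 7156 CPM in WT, 1980 to 4777 CPM in APP/PS1 and 2942 to 4023 CPM in APP/PS1+N-AS libraries. Markers of border macrophages (7 genes, 23.5 to 51.5 CPM), monocytes (5 genes, 35.3 to 54.3) and neutrophils (5 of 6 genes listed, 2.90 to 113) were low, and none of these was called in APP/PS1 against WT by edgeR, DESeq2 or limma voom. Markers of endothelial cells and pericytes (8 genes, 516 to 1369 CPM) were not called either. The sum of 6 choroid plexus markers, most of it Ttr, was higher in all APP/PS1 than in all WT libraries, while the APP/PS1+N-AS libraries overlapped both groups. The sum was 413, 409 and 10.3 CPM in WT, 884, 1219, 893 and 705 CPM in APP/PS1, and 621, 834 and 10.4 CPM in APP/PS1+N-AS libraries. All APP/PS1 libraries were above all WT libraries for Ttr, Kl, Clic6 and Kcne2, none of the 6 was called by edgeR, DESeq2 or limma voom, and 1, Kl, had an unadjusted edgeR p under 0.05. The part of astrocytes, choroid plexus or other cells in the cathepsin levels was not tested. The study's methods state that only male mice were used, but reads of sex-linked genes did not follow this in every library. WT libraries and replicate 3 of APP/PS1+N-AS had 29 to 37 reads of Xist, the RNA that coats the inactive X of female cells, and 1492 to 3700 reads of Y-linked genes. Replicates 3 and 4 of APP/PS1 had 8477 and 11188 reads of Xist and 13 reads each of Y-linked genes, and the other 4 libraries had many reads of both kinds, 5253 to 8848 of Xist and 470 to 863 of Y-linked genes. So all 4 APP/PS1 libraries differed from all WT libraries in sex-linked reads, and genotype and sex-linked reads cannot be told apart in that comparison. Fits without replicates 3 and 4 of APP/PS1 and replicate 3 of APP/PS1+N-AS are also given, but they still compare WT libraries that had few Xist reads with APP/PS1 libraries that had many. The sources used here do not say whether pools held both sexes or whether samples were exchanged. An exchange would change the group to which a library's values belong. Replicate 3 of APP/PS1+N-AS, whose sex-linked reads and choroid plexus sum were like those of WT replicate 3, had 76.3 CPM of Gfap. It was above every WT library in each cathepsin except Ctsk. The share of all genes with that arrangement was not computed, and an exchange was not tested.

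The 10 genes lie on 7 chromosomes (GRCm38, the build also called mm10), namely Ctsa at chr2:164832873-164841032 and Ctsz at chr2:174427493-174439039, Ctsk at chr3:95499256-95509362 and Ctss at chr3:95526786-95556403, Ctsc at chr7:88278085-88310888 and Ctsd at chr7:142375911-142388038, Ctsh at chr9:90054152-90076089, Ctsl at chr13:64359337-64370890, Ctsb at chr14:63122462-63145923 and Ctsf at chr19:4855130-4860918. Ctsk and Ctss are neighbours on the same strand. Promoter windows from RefSeq (GRCm38.p6), from 250 bases before to 50 bases after the start, were matched for 8 of the 10 genes, with 2 windows for Ctsa, so 9 windows in all. They were searched on both strands for 3 motifs. These were CACGTG, the E-box, then TCACGTGA, which contains the E-box and is the core of the element read by MiT/TFE factors, and GAGGAAGT, the core bound by the myeloid factor PU.1. The E-box was in 4 of the 9 windows (Ctsa, Ctsd, Ctsf and Ctsl) and in 7.15% of all 32851 windows. The longer core was in 2 of the 9 (Ctsa and Ctsd) and in 0.974% of all, and GAGGAAGT was in 2 (Ctsc and Ctss) and in 3.2% of all. The Ctsa window with motifs and the Ctsl window lie wholly inside their genes, downstream of the gene start given above. The other Ctsa window, chr2:164832622-164832921, spans that gene start and held none of the 3 motifs. The windows of Ctsz, with a log2 fold change of 2.63 of APP/PS1 over WT, and of Ctsk held none of the 3 motifs. The sequences that follow are the 4 windows with an E-box and that of Ctss, because Ctsd, Ctss and Ctsl had some of the steepest differences between groups while Ctsf, with the same motif, had none that passed the test. Capitals mark the motif found, which in the window of Ctss is the complement of GAGGAAGT, and each sequence reads from 5′ to 3′ on the strand of its gene.
Ctsa (chr2:164833523-164833822, plus strand): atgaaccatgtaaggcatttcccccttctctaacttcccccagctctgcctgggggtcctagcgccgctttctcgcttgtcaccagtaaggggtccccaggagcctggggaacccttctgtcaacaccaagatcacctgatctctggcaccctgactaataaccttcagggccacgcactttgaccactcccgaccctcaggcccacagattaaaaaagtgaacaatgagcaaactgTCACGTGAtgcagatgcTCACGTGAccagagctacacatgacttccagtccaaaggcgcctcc
Ctsd (chr7:142387778-142388077, minus strand): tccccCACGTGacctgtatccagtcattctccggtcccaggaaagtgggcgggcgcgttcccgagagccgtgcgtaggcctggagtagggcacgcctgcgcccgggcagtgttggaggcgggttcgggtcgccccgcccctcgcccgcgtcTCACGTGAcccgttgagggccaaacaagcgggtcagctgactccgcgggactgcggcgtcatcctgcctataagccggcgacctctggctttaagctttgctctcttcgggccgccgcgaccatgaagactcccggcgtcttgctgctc
Ctsl (chr13:64370471-64370770, minus strand): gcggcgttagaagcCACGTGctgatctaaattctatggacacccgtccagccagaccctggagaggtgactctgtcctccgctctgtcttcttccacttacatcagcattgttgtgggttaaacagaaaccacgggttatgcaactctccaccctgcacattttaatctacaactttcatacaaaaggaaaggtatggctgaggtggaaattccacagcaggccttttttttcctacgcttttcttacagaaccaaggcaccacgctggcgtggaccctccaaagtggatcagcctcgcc
Ctsf (chr19:4854915-4855214, plus strand): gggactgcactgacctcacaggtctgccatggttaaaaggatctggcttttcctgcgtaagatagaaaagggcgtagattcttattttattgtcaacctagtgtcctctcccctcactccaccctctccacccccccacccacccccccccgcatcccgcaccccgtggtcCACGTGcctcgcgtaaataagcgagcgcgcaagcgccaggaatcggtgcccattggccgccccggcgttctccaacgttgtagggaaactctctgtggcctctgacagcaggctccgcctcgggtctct
Ctss (chr3:95526536-95526835, plus strand): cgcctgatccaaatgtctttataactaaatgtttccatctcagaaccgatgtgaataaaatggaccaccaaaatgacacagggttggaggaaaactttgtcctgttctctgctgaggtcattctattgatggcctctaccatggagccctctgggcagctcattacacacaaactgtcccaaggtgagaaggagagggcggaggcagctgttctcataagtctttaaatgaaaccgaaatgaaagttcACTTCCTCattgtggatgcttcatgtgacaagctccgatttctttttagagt

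Taking the start base as 0, the first letter of the longer core lay at -13 and again at 4 in the window of Ctsa, and at -99 in that of Ctsd. Ctsd held a further E-box at -245, and the E-boxes of Ctsf and Ctsl lay at -79 and -236. The motif in the window of Ctss began at -2. These matches describe letters in the windows and carry no measurement of binding.

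To examine how cathepsin expression differed with genotype, APP/PS1 microglia were compared with WT microglia. Of the 10 genes, 8 rose: Ctsd, Ctss, Ctsz, Ctsl, Ctsb, Ctsh, Ctsc and Ctsa, by 2.09-fold to 6.60-fold. Ctsf and Ctsk did not pass the test. Thus 8 of 10 cathepsins were called higher at an edgeR adjusted p under 0.05, while 2.67% of all genes tested were called higher. All APP/PS1 libraries lay above all WT libraries for the same 8 genes, as they did for 8.15% of all genes. The median log2 fold change was 1.61 over the 10 cathepsins and -0.07 over all genes tested. The summed level of the 10 genes was 903 ± 151 CPM (SD, n = 3) in WT and 4368 ± 852 CPM (n = 4) in APP/PS1 libraries.

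**Figure D1:**
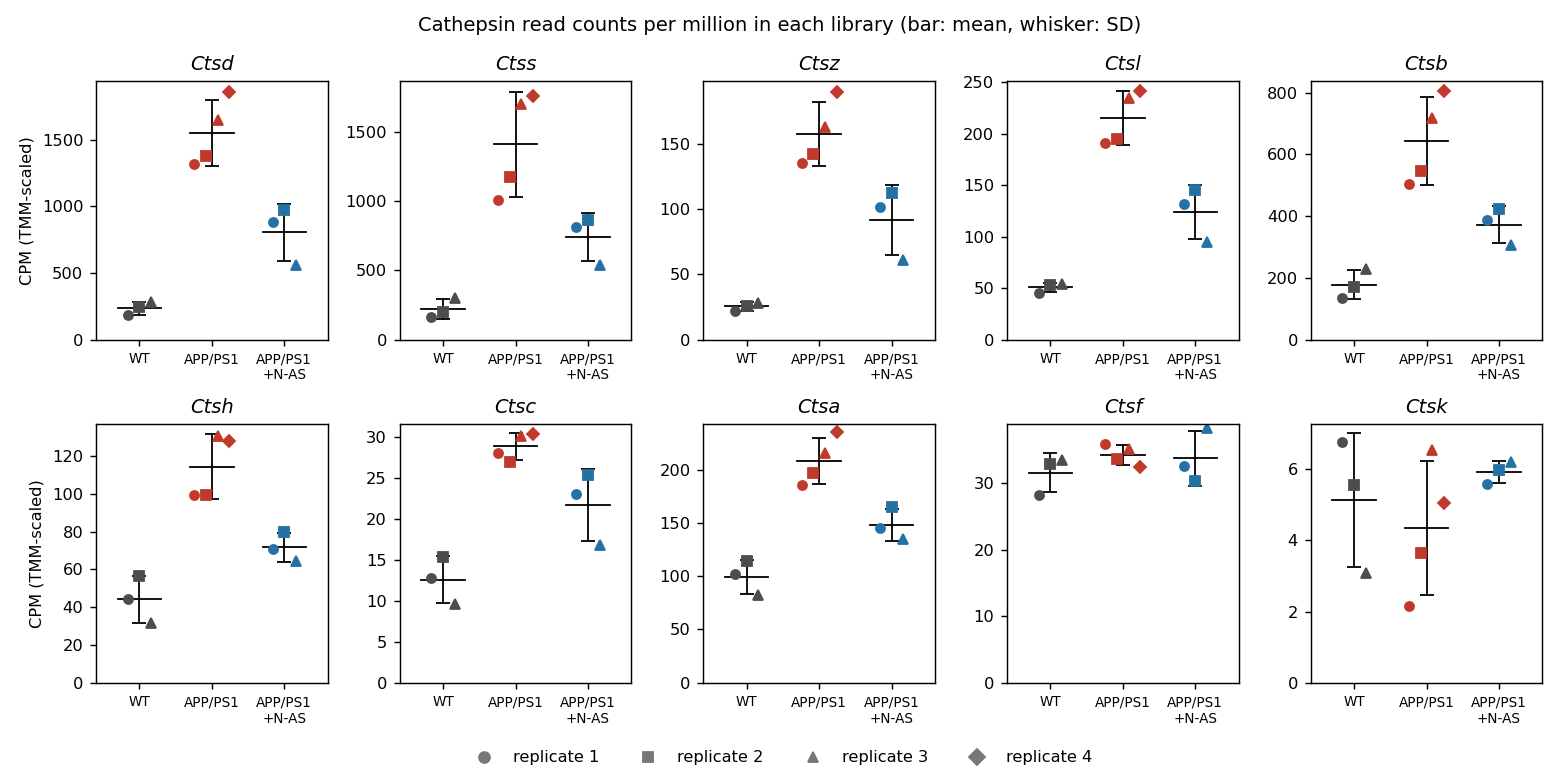
Normalized read counts (CPM, scaled by TMM) of each cathepsin, one panel per gene with its own axis from 0; points are libraries, shaped by replicate number, bars are group means and whiskers the SD (WT n = 3, APP/PS1 n = 4, APP/PS1+N-AS n = 3). For 8 genes the APP/PS1+N-AS libraries sit between the other groups without overlap, whereas the groups of Ctsf and Ctsk overlap.

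Ctsd encodes cathepsin D, the main aspartic endopeptidase of lysosomes. Its level was 185, 241 and 279 CPM in the WT libraries, 1317, 1381, 1648 and 1858 CPM in the APP/PS1 libraries, and 881, 970 and 562 CPM in the APP/PS1+N-AS libraries. The 3 groups did not overlap, and the lowest APP/PS1 library was far above the highest WT library. The log2 fold change of APP/PS1 over WT was 2.72 ± 0.26 (SE, edgeR adjusted p = 0.000545), with a 95% interval of 2.14 to 3.30. In the annotation Ctsd shares bases on its strand with a gene model, Gm49369, that is not in the count tables.

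Ctss, Ctsl and Ctsb encode cysteine endopeptidases. Cathepsin S removes the invariant chain from MHC class II and remains active at neutral pH. Ctss had 166, 198 and 299 CPM in WT, 1008, 1173, 1701 and 1761 CPM in APP/PS1, and 811, 865 and 542 CPM in APP/PS1+N-AS libraries. The APP/PS1 libraries formed a lower and a higher pair, and even the lower pair was above every library of the other groups. The log2 fold change of APP/PS1 over WT was 2.67 ± 0.31 (SE, edgeR adjusted p = 0.00135).

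Cathepsin L is a strong endopeptidase with broad specificity. Ctsl had 45.6, 52.6 and 53.6 CPM in WT, 190, 195, 234 and 241 CPM in APP/PS1, and 131, 146 and 94.3 CPM in APP/PS1+N-AS libraries. The replicates were tighter than those of Ctss, with an SD of 4.33 CPM in WT and 26.2 CPM in APP/PS1. The log2 fold change was 2.09 ± 0.18 (SE, edgeR adjusted p = 0.000379). Cathepsin B cuts both within proteins and from their carboxyl end. Ctsb had 135, 171 and 229 CPM in WT, 504, 546, 718 and 804 CPM in APP/PS1, and 386, 424 and 306 CPM in APP/PS1+N-AS libraries. Its groups also stood apart, with a log2 fold change of 1.85 ± 0.25 (SE, edgeR adjusted p = 0.00289) over WT. Ctsb overlaps Fdft1, a gene of sterol synthesis on the opposite strand, which had at most 1762 reads in a library, and the sources used here do not say whether reads were counted by strand.

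Ctsz, Ctsh and Ctsc encode exopeptidases, which remove residues from the ends of proteins. Cathepsin Z, also called cathepsin X, takes single residues from the carboxyl end. Ctsz had 22.0, 26.1 and 28.3 CPM in WT, 135, 143, 163 and 190 CPM in APP/PS1, and 102, 112 and 60.9 CPM in APP/PS1+N-AS libraries. Although its WT level was low, its log2 fold change of 2.63 ± 0.23 (SE, edgeR adjusted p = 0.000379) was close to those of Ctsd and Ctss.

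Cathepsin H is an aminopeptidase. Ctsh had 44.5, 56.5 and 31.7 CPM in WT, 99.6, 99.2, 131 and 128 CPM in APP/PS1, and 70.8, 79.6 and 64.6 CPM in APP/PS1+N-AS libraries. No group overlapped another, and the log2 fold change over WT was 1.37 ± 0.20 (SE, edgeR adjusted p = 0.00475). Cathepsin C removes dipeptides and thereby activates granule serine proteases. Ctsc had 12.8, 15.4 and 9.59 CPM in WT, 28.0, 26.9, 30.1 and 30.3 CPM in APP/PS1, and 23.1, 25.3 and 16.8 CPM in APP/PS1+N-AS libraries. The APP/PS1 libraries were close together, and the highest APP/PS1+N-AS library was just below them. Its log2 fold change over WT was 1.20 ± 0.19 (SE, edgeR adjusted p = 0.00644).

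Ctsa encodes the serine carboxypeptidase cathepsin A, which also protects β-galactosidase and neuraminidase 1 in a complex. Its level was 102, 114 and 82.7 CPM in WT, 185, 197, 216 and 235 CPM in APP/PS1, and 145, 165 and 135 CPM in APP/PS1+N-AS libraries. Among the 8 genes that rose, Ctsa had the lowest log2 fold change over WT, 1.06 ± 0.16 (SE, edgeR adjusted p = 0.00493). Ctsa overlaps 1515 bases of Pltp, a phospholipid transfer gene on the opposite strand with up to 3970 reads in a library, so its level is uncertain if counting ignored strand.

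Ctsf and Ctsk behaved otherwise. Cathepsin F is a cysteine endopeptidase with a long, cystatin-like propeptide. Ctsf had 28.2, 32.9 and 33.5 CPM in WT, 35.8, 33.6, 35.2 and 32.5 CPM in APP/PS1, and 32.5, 30.3 and 38.3 CPM in APP/PS1+N-AS libraries. All 3 groups overlapped, and the log2 fold change of APP/PS1 over WT was 0.12 ± 0.12 (SE, edgeR adjusted p = 0.683), with a 95% interval of -0.15 to 0.38. Cathepsin K degrades collagen and is best known from osteoclasts. Ctsk was the least abundant member, with 25 to 113 reads per library, and had 6.77, 5.57 and 3.09 CPM in WT, 2.16, 3.64, 6.56 and 5.05 CPM in APP/PS1, and 5.60, 5.99 and 6.21 CPM in APP/PS1+N-AS libraries. Its groups overlapped and its log2 fold change over WT was -0.21 ± 0.36 (SE, edgeR adjusted p = 0.818), with the largest error of the 10 genes.

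**Figure D2:**
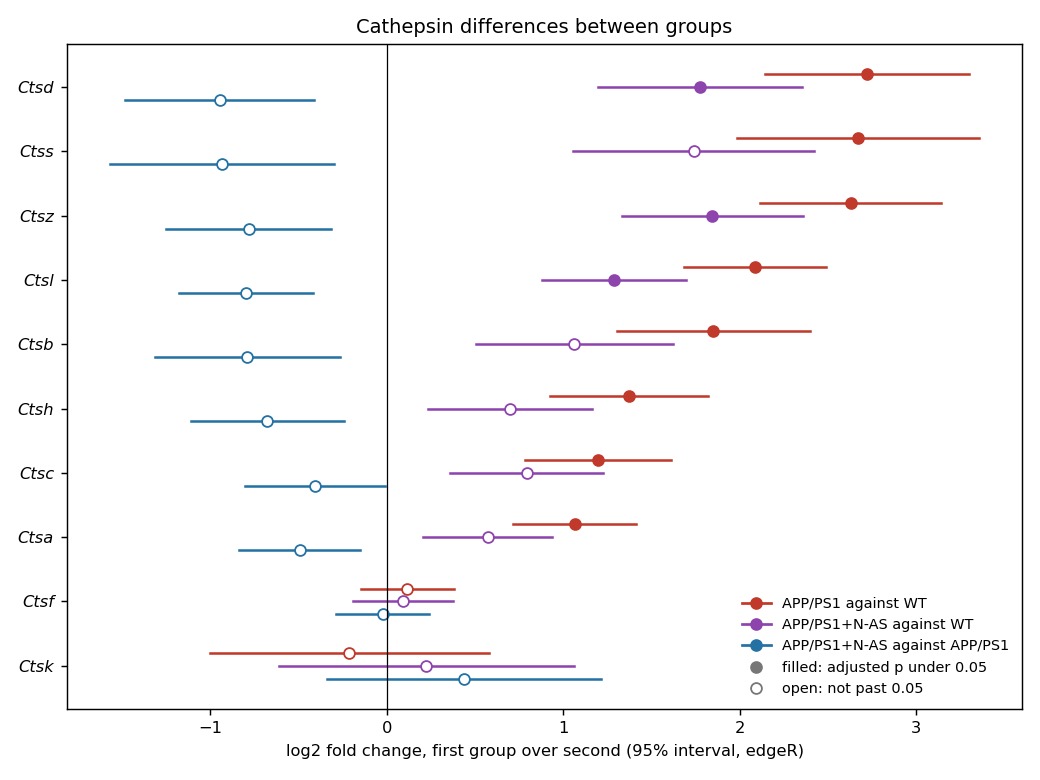
Log2 fold change of each cathepsin (horizontal axis, first group over second) in the 3 comparisons, from 1 edgeR model of the 10 libraries; lines are 95% intervals and filled points have an adjusted p under 0.05. Filled points are 8 for APP/PS1 against WT, 3 for APP/PS1+N-AS against WT and 0 for APP/PS1+N-AS against APP/PS1.

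Next, APP/PS1+N-AS microglia were compared with APP/PS1 microglia, which asks how cathepsin expression differed with the injected lipid. The means of 9 cathepsins were lower and that of Ctsk was higher. The values of 8 genes, all but Ctsf and Ctsk, were lower in all 3 APP/PS1+N-AS libraries than in any of the 4 APP/PS1 libraries, an arrangement found for 6.46% of all genes tested. No cathepsin passed the adjusted threshold with edgeR, and neither did any other gene (0% of those tested), although 1653 genes had an unadjusted p under 0.05. At that unadjusted threshold, 8 of the 10 cathepsins were lower, compared with 4.05% of all genes. The median log2 fold change was -0.73 over the cathepsins and -0.01 over all genes tested. DESeq2 called 73 genes, among which were Ctsd (adjusted p = 0.0156) and Ctsl (adjusted p = 0.00588), and it called 0.218% of all its genes lower. On simulated counts DESeq2 called 49 unchanged genes in this comparison, and edgeR 8.

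Ctsd had the lowest log2 fold change, -0.95 ± 0.24 (SE, edgeR adjusted p = 0.494), with a 95% interval of -1.48 to -0.41. Its mean was 804 ± 215 CPM (SD, n = 3) in APP/PS1+N-AS and 1551 ± 250 CPM (n = 4) in APP/PS1 libraries, or 51.9% of the latter. Ctss was close to it, at -0.93 ± 0.29 (SE, edgeR adjusted p = 0.494), and its mean was 52.4% of that in APP/PS1 libraries. Ctsl had the smallest unadjusted p of the 10 genes, 0.000793 in edgeR, at a log2 fold change of -0.80 ± 0.17 (SE, edgeR adjusted p = 0.478).

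Ctsb and Ctsz had similar values, -0.79 ± 0.24 and -0.78 ± 0.21 (SE). The aminopeptidase gene Ctsh was at -0.68 ± 0.20, Ctsa at -0.49 ± 0.16 and Ctsc at -0.41 ± 0.18 (SE). The comparison with WT uses the same APP/PS1 libraries, so the values of the 2 comparisons are not independent. Ctsf was at -0.02 ± 0.12 and Ctsk at 0.44 ± 0.35 (SE). Across the 10 genes the edgeR adjusted p lay between 0.478 and 0.973.

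APP/PS1+N-AS microglia were also compared with WT microglia. Ctsz, Ctsd and Ctsl remained higher than in WT, by log2 fold changes of 1.85 ± 0.23 (SE, edgeR adjusted p = 0.0187), 1.78 ± 0.26 (adjusted p = 0.0256) and 1.29 ± 0.19 (adjusted p = 0.0238). These 3 of 10 genes compare with 0.176% of all genes called higher. Ctss had a log2 fold change of 1.74 ± 0.31 (SE) and an edgeR adjusted p of 0.0699, above the threshold, so it was not called. Without replicates 3 and 4 of APP/PS1 and replicate 3 of APP/PS1+N-AS, Ctss was called too (1.94, edgeR adjusted p = 0.0347), so that 4 cathepsins were called, compared with 0.498% of all genes. All APP/PS1+N-AS libraries were above all WT libraries for 8 of the 10 genes, compared with 4.9% of all genes. The remaining values among the 8 were 1.06 for Ctsb, 0.79 for Ctsc, 0.70 for Ctsh and 0.57 for Ctsa on the log2 scale. These calls depended on single libraries: with 1 library left out at a time, between 0 and 4 cathepsins were called, and none was called without WT replicate 1, WT replicate 2, APP/PS1+N-AS replicate 1 or APP/PS1+N-AS replicate 2. With a replicate block in the fit, 0 of the 10 and 0.0214% of all genes were called higher, and the adjusted p of Ctsz, Ctsd and Ctsl was 0.0841, 0.093 and 0.0978.

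The libraries within a group were not alike, and the cathepsins differed among them in a shared order. In 9 of 10 genes, replicates 3 and 4 of APP/PS1 were both above replicates 1 and 2, except in Ctsf. Replicate 3 of APP/PS1+N-AS was the lowest of its group in 8 genes. The share of all genes with either order was not computed, so neither can be read as particular to the cathepsins. Replicates 3 and 4 of APP/PS1 were those with 13 reads of Y-linked genes, and replicate 3 of APP/PS1+N-AS was the one with few Xist reads. The labels number the libraries, and these 3 and WT replicate 3 carry numbers 7 to 10, while the others carry 1 to 6. In both transgenic groups the number set and the sex-linked reads therefore differ together, and their parts cannot be told apart.

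Within library numbers 1 to 6 (2 libraries a group), the same 8 genes were called higher in APP/PS1 than in WT, as were 2.66% of all genes. For APP/PS1+N-AS against APP/PS1 the differences were smaller. Ctsd was at -0.55 ± 0.17, Ctsl at -0.48 ± 0.12 and Ctss at -0.39 ± 0.16 (SE, log2, edgeR), and none of the 10 was called. The median of the 10 genes was -0.38, and 7 were lower at an unadjusted p under 0.05, compared with 4.14% of all genes.

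Between library numbers 7 to 10, with 1 APP/PS1+N-AS and 2 APP/PS1 libraries, the difference in mean log2 CPM was -1.64 for Ctsd and -1.68 for Ctss, compared with -0.54 and -0.38 in numbers 1 to 6. For all 8 genes other than Ctsf and Ctsk the libraries with N-AS were lower in both sets, and the difference was larger in numbers 7 to 10. There the APP/PS1 libraries had almost no Y-linked reads and the 1 APP/PS1+N-AS library had few Xist reads. How many of all genes were lower in both sets was not computed, so this cannot be read as particular to the cathepsins. Ctsf went from -0.14 in numbers 1 to 6 to 0.18 in numbers 7 to 10, and Ctsk from 1.01 to 0.11. In the edgeR fit Ctsk was 0.99 ± 0.31 (SE, log2, edgeR adjusted p = 0.413) higher in numbers 1 to 6. In APP/PS1 against WT, Ctsd was 2.67 higher in numbers 1 to 6 and 2.65 higher in numbers 7 to 10 on the log2 scale, and Ctss 2.58 and 2.53 higher, but Ctsh differed more, at 0.99 and 2.03. Ctsk differed most between the sets and changed sign, from -1.10 to 0.87. Its groups did not overlap in either set, but numbers 7 to 10 held only 1 WT library. The share of all genes with such a change of sign was not computed.

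Without replicates 3 and 4 of APP/PS1 and replicate 3 of APP/PS1+N-AS, 5 cathepsins were called higher in APP/PS1 than in WT (Ctsd, Ctsz, Ctss, Ctsl and Ctsb), as were 0.948% of all genes, while Ctsa, Ctsc and Ctsh had an edgeR adjusted p between 0.0643 and 0.0842. In APP/PS1+N-AS against APP/PS1, 0 were called by edgeR in that fit, and at an unadjusted p under 0.05 only Ctsl was lower (0.755% of all genes) and only Ctsk higher (2.21%). With the level of Y-linked genes as a covariate, 4 were called higher in APP/PS1 than in WT, Ctsd, Ctsz, Ctsl and Ctss, as were 0.368% of all genes. Their log2 fold changes were then 2.30, 2.21, 1.75 and 2.03. In APP/PS1+N-AS against APP/PS1, the fit with this covariate called 0 cathepsins, and their median log2 fold change was -0.45. At an unadjusted edgeR p under 0.05, 3 were lower and 1 higher, and 680 of all genes had such a p in either direction. The Y-linked level differs together with the number set in the transgenic groups, so this fit cannot separate the 2. Y-linked reads ran from 13 to 690 in APP/PS1 libraries and from 1492 to 3700 in WT libraries. Because these ranges do not overlap, the fit cannot separate genotype from sex-linked reads in APP/PS1 against WT.

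**Figure D3:**
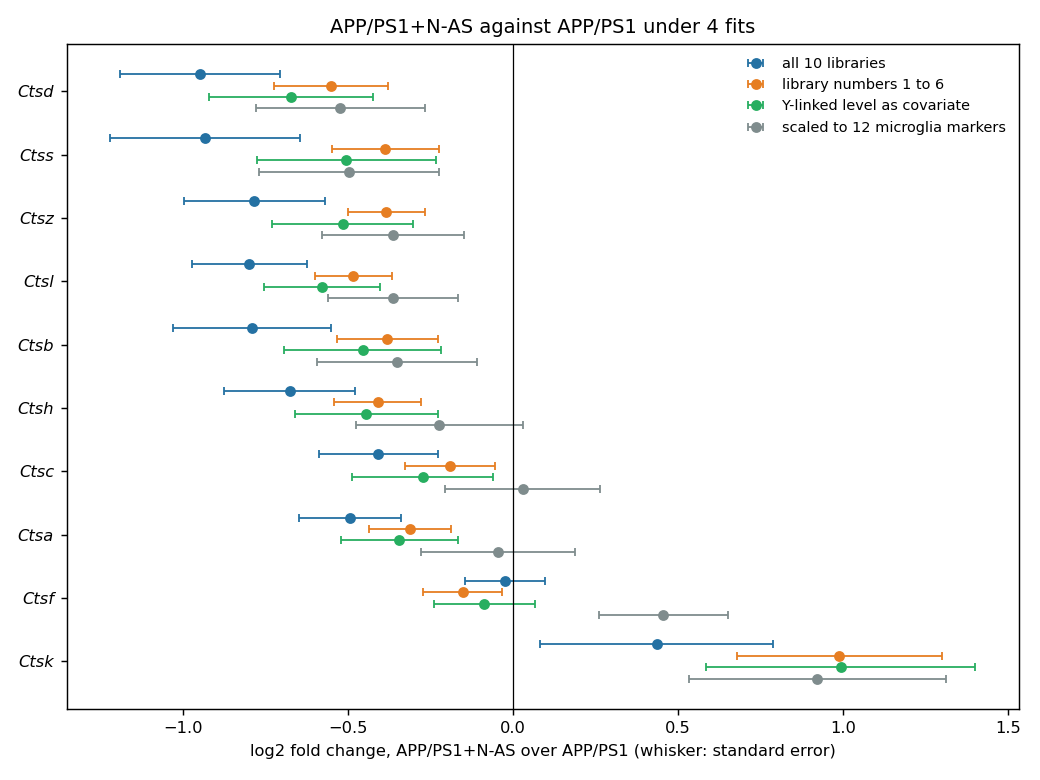
Log2 fold change of APP/PS1+N-AS over APP/PS1 (horizontal axis) for each cathepsin under 4 edgeR fits, with standard errors as whiskers. For the 8 genes from Ctsd to Ctsa, points from all 10 libraries lie farthest below 0, and those from library numbers 1 to 6 or with the Y-linked level as covariate lie nearer to 0.

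Because microglial markers themselves were higher in APP/PS1 than in WT libraries (8 of 12 passed the test, and their mean log2 level differed by 1.05), the cathepsins were also described relative to these markers. Log2 fold changes of single markers ran from 0.32 (P2ry13) to 1.76 (Aif1), and P2ry12, P2ry13, Tmem119 and Sall1 were not called. Values relative to the mean therefore depend on which markers are averaged. Ctsd was 2.30 ± 0.13 (SD, n = 3) above the marker mean in WT and 3.97 ± 0.30 (n = 4) above it in APP/PS1 libraries on the log2 scale. Ctss was 2.19 ± 0.19 above it in WT and 3.81 ± 0.41 in APP/PS1 libraries. Ctsz crossed the marker mean, from -0.89 ± 0.12 to 0.68 ± 0.30. For Ctsd, Ctss, Ctsz, Ctsl and Ctsb all APP/PS1 libraries were above all WT libraries on this scale, an arrangement found for 0.667% of all genes.

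Ctsa, Ctsh and Ctsc, in contrast, overlapped between WT and APP/PS1 libraries relative to the markers. Ctsa was 1.07 ± 0.46 (SD) above the marker mean in WT and 1.09 ± 0.24 in APP/PS1 libraries. Ctsf was below the marker mean in all libraries, by a mean log2 difference of -0.58 in WT and -1.51 in APP/PS1. All APP/PS1 libraries were below all WT libraries for Ctsf on this scale, an arrangement found for 68.8% of all genes. In a fit scaled to the 12 markers, the median of all genes shifted to -1.13 on the log2 scale for APP/PS1 over WT. Ctsd (1.69), Ctss (1.65), Ctsz (1.59), Ctsl (1.03) and Ctsb (0.83) were called higher in that fit, compared with 0.662% of all genes. Ctsf (-0.94) and Ctsk (-1.35) were called lower, as were 78.9% of all genes, so that both lay near the shifted median. The values of Ctsa, Ctsc and Ctsh were -0.02, 0.11 and 0.28 and did not pass the test. Without replicates 3 and 4 of APP/PS1 and replicate 3 of APP/PS1+N-AS, the difference relative to the marker mean was 1.52 for Ctsd, 1.32 for Ctss, 1.43 for Ctsz, 0.90 for Ctsl and 0.57 for Ctsb.

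In APP/PS1+N-AS against APP/PS1 libraries, the marker mean was 0.46 lower on the log2 scale. Relative to it, Ctsd, Ctsl and Ctsz were lower in all APP/PS1+N-AS libraries than in any APP/PS1 library, by -0.51, -0.35 and -0.36, compared with 0.459% of all genes, while Ctss (-0.46) and Ctsb (-0.32) overlapped. Ctsf and Ctsk were higher without overlap, by 0.43 and 1.00, as were 40.8% of all genes. The fit scaled to the markers called 0 genes in this comparison, and moved the median of all genes to 0.45. Without the same 3 libraries the relative differences in this comparison were nearer to 0, at -0.21 for Ctsd, -0.15 for Ctsl and -0.05 for Ctsz. Whether the number of microglia or the RNA of each cell moved with the cathepsins was not tested.

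**Figure D4:**
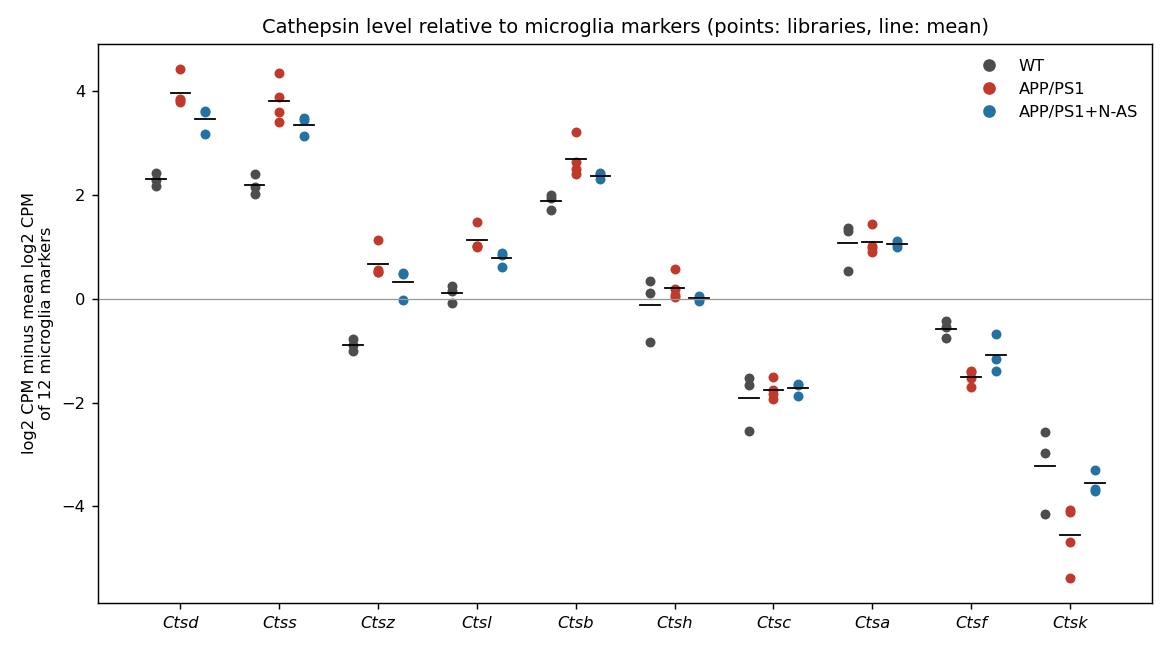
Log2 CPM of each cathepsin minus the mean log2 CPM of 12 microglia markers (vertical axis) in each library, with the group mean as a line (WT n = 3, APP/PS1 n = 4, APP/PS1+N-AS n = 3). Ctsd, Ctss, Ctsz, Ctsl and Ctsb keep a gap between WT and APP/PS1 libraries, and Ctsh, Ctsc and Ctsa overlap.

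Levels of different genes were compared per kilobase of the principal transcript. In APP/PS1 libraries the order of CPM per kb was Ctss (1041 ± 278, SD), Ctsd (729 ± 117), Ctsb (136 ± 29.9), Ctsz (110 ± 17.0), Ctsh (70.8 ± 10.8), Ctsa (57.1 ± 5.99), Ctsl (34.9 ± 4.25), Ctsf (17.3 ± 0.765), Ctsc (11.6 ± 0.659) and Ctsk (2.88 ± 1.25). The ranges over libraries of Ctss and Ctsd overlapped, although Ctss was above Ctsd in each of the 4 libraries, and those of Ctsb and Ctsz and of Ctsh and Ctsa overlapped too. In WT libraries Ctss (163 ± 51.2 CPM per kb) and Ctsd (110 ± 22.2) also led. There Ctsz (17.7 ± 2.22) ranked sixth, below Ctsh (27.4 ± 7.67) and Ctsa (27.3 ± 4.36), and Ctsl (8.21 ± 0.702) was below Ctsf (15.9 ± 1.48). The order depended on the length used. Per kilobase of all exons of a gene, Ctsz (17.7) was already above Ctsh (9.83) in WT libraries and Ctsl (7.80) above Ctsf (6.26), while Ctsz was still below Ctsa (21.1) in WT and above it in APP/PS1 libraries (110 and 44.2 CPM per kb).

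The genes around the cathepsins were described from lists by role. Of 13 other cathepsins, 4 had enough reads to be tested and 1 rose in APP/PS1 compared with WT. This was Ctse, which encodes the aspartic peptidase cathepsin E, at 0.736 CPM in WT and 4.83 CPM in APP/PS1 libraries on average (log2 fold change 2.78 ± 0.52, SE, edgeR adjusted p = 0.0168). Ctso, Ctsw and Cts8 had log2 fold changes of 0.32, 0.16 and 0.06 and did not pass the test. The 9 others, among them the neutrophil gene Ctsg and placental cathepsins, had at most 33 reads in a library.

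Among inhibitors of cathepsins, 2 of the 7 tested rose. Cst7, which encodes cystatin F, an inhibitor that acts inside endosomes and lysosomes, averaged 0.731 CPM in WT and 95.5 CPM in APP/PS1 libraries (log2 fold change 7.13 ± 0.41, SE, edgeR adjusted p = 5.93e-05), and was at 33.7 CPM in APP/PS1+N-AS libraries. Cst3, which encodes the secreted cystatin C, was at 133 CPM in WT and 308 CPM in APP/PS1 libraries (1.21 ± 0.19, SE, edgeR adjusted p = 0.00742). Serpinb1a, a serpin against serine proteases, had a log2 fold change of -0.79 (edgeR adjusted p = 0.131), and Serpina3g, which inhibits cysteine cathepsins, one of 0.98 (adjusted p = 0.452).

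Of 7 other lysosomal peptidases, 4 rose in APP/PS1 compared with WT: Lgmn, whose product legumain processes procathepsins (log2 fold change 1.04, edgeR adjusted p = 0.0126), Prcp (0.88, adjusted p = 0.0127), Dpp7 (0.78, adjusted p = 0.0277) and Tpp1 (0.56, adjusted p = 0.0493). Among the partners of cathepsin A and the saposins, 1 of 4 rose. Glb1, the β-galactosidase that cathepsin A protects, had a log2 fold change of 1.14 (edgeR adjusted p = 0.00331), whereas Neu1, the neuraminidase of the same complex, was at 0.00 with a 95% interval of -0.22 to 0.22. Galns was at 0.42 and Psap, the saposin precursor, at 0.39, and neither passed the test.

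None of 9 genes for sorting enzymes to the lysosome was called in APP/PS1 against WT by edgeR, and 1 had an unadjusted p under 0.05. That gene was Nagpa, which uncovers the mannose 6-phosphate tag, at 0.70 (edgeR adjusted p = 0.0634), and it was the 1 gene of the list that DESeq2 called, while limma voom called 0. The receptor gene M6pr was at 0.26, Sort1 at -0.34 and Vps26a at 0.20 on the log2 scale. Of the MiT/TFE factors, Mitf rose, with a log2 fold change of 0.76 (edgeR adjusted p = 0.0254), Tfe3 was at 0.54 (adjusted p = 0.0528), and Tfeb was at -0.18 (adjusted p = 0.704). In APP/PS1+N-AS against APP/PS1, 0 genes of these 6 lists were called by edgeR, and at an unadjusted p under 0.05 there were 6 lower genes and 1 higher, Napsa. DESeq2 called 2 of them lower, Cst7 and Glb1, and limma voom called 0. In APP/PS1+N-AS against WT only Cst7 was called among them by edgeR, at 5.62 (edgeR adjusted p = 0.000607). DESeq2 called Cst7 and Lgmn higher there, and limma voom only Cst7.

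Finally, the gene whose profile over the 10 libraries was most like each cathepsin was found, as the smallest root mean square difference of centred log2 CPM among genes outside the 10. The points share libraries and depth, and the measure is a description. For Ctss it was C1qa, a complement gene of microglia (0.120), and for Ctsd and Ctsz it was Fcer1g, the Fc receptor γ chain (0.112 and 0.166). Ctsd and Ctsz were closer still to each other (0.0888). For Ctsb it was Hexa (0.112), for Ctsl Grn (0.121) and for Ctsh Naglu (0.123), of which Hexa and Naglu encode lysosomal hydrolases and Grn the lysosomal protein progranulin. Ctsa and Ctsc were nearest to the ribosomal protein genes Rpl23 (0.0954) and Rpl39 (0.114). Ctsf was nearest to Numb (0.0558), and Ctsk, with the least reads, had the largest distance, 0.206 from Fam150b.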

How the data were processed

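After depletion of ribosomal RNA and stranded library preparation, paired reads of 100 bases were aligned with TopHat, and the authors deposited whole-number counts per gene without normalization; the submitters' processing notes also name edgeR and mm10, and versions are not given in the sources used here. Groups and replicate numbers came from the sample titles. The 10 genes and the lists around them were chosen with earlier results of these data known.

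Counts on lines with 1 symbol were summed. Genes were filtered with filterByExpr, scaled by TMM and tested in one model of 3 groups with edgeR 4.0.16 (quasi-likelihood; R 4.3.3). P-values were adjusted by Benjamini-Hochberg over 18727 genes, with a threshold of 0.05. CPM used TMM factors, and log2 CPM a prior count of 2. Libraries are pools of mice, and nothing in the sources says how pools with one number relate. Total counts were 8805804 to 19432075, and intervals and SDs do not separate PCR error, since no molecular identifiers were used. Gene positions, overlaps and transcript lengths came from GENCODE M21 (GRCm38), and promoters from RefSeq. On simulated counts with a 2-fold or 4-fold change in APP/PS1 over WT, edgeR recovered 31 and 78 of 100 genes each, and called 3 others of 18421. DESeq2 recovered 54 and 87, and called 36 others of 18727. In APP/PS1+N-AS against APP/PS1 of the same simulation, edgeR called 8 others and DESeq2 49. In APP/PS1+N-AS against WT, where no gene was changed, edgeR called 0 and DESeq2 15. Calls by DESeq2 alone are to be read with this in mind.

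All 10 cathepsins were named, with up to 4 genes of lowest adjusted p in APP/PS1 against WT from each of the 6 lists by role, the nearest gene in profile, and sex-linked genes as a check; Ctsg and Napsa were named after their values were seen. Libraries of the same number deviated together in APP/PS1 and APP/PS1+N-AS (r = 0.142 to 0.309 for the 3 pairs, after group means were removed). So did the 3 pairs with different numbers from the same library set, 1 to 6 or 7 to 10 (r = 0.173 to 0.32). A shared number therefore added no visible part. In these groups the library set and the sex-linked reads differ together, so their parts in these deviations cannot be told apart. The pairing comes from the titles' replicate numbers. The replicate block changed no cathepsin call in that comparison, where none was called without it either. Alternatives were an unadjusted p, each library left out, only the 2 groups compared, the library number set as covariate, the replicate block, a minimum of 10 counts in every library, all genes with a read, scaling to 12 microglia markers or to total counts, quantile normalization with limma-voom (limma 3.58.1), and DESeq2 1.42.0. Library numbers 1 to 6 only, the Y-linked level as covariate, and leaving out 3 libraries were added after the data were seen. FPKM values of the study were not used here.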

Additional observations from a re-analysis of the deposited data

How the results depend on the processing

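In APP/PS1 against WT, 8 cathepsins were called with each library left out in turn and in the other alternatives with these exceptions: 4 with the Y-linked level as covariate, 5 without APP/PS1 replicates 3 and 4 and APP/PS1+N-AS replicate 3, and 5 higher and 2 lower with scaling to microglia markers. The number of all genes called, 649, was 1297 with DESeq2, 14895 with marker scaling, 326 with the replicate block, 1055 with the library number set as covariate, 410 with only the 2 groups, 76 with the Y-linked covariate, 195 without the 3 libraries and 3221 at an unadjusted p under 0.05. Leaving out 1 library gave 299 to 923, and the count moved by over 1.5 times without WT replicate 1 (319), WT replicate 2 (362), or APP/PS1 replicates 2 (430), 3 (299) or 4 (299).

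In APP/PS1+N-AS against APP/PS1, 0 cathepsins became 2 with DESeq2 and 8 at an unadjusted p under 0.05, and 0 genes became 73 with DESeq2, 11 with library numbers 1 to 6 only and 1653 at an unadjusted p; leaving out 1 library gave 0 to 1 genes and 0 cathepsins. In APP/PS1+N-AS against WT, 3 cathepsins became 6 with DESeq2, 6 with library numbers 1 to 6, 8 at an unadjusted p, and 0 with marker scaling, the replicate block or only the 2 groups; leaving out 1 library gave 0 to 4, with 1 without APP/PS1 replicate 2 and 2 without APP/PS1 replicate 3. The 35 genes called became 180 with DESeq2, 20 with limma, 5 with marker scaling, 5 with the replicate block, 64 with the number set as covariate, 2 with only the 2 groups, 437 with library numbers 1 to 6, 23 with the Y-linked covariate, 98 without the 3 libraries and 1261 at an unadjusted p, and leaving out 1 library gave 1 to 116. Replicate numbers did not pair WT libraries with the others (r = -0.486 to 0.441 with APP/PS1 and -0.136 to 0.348 with APP/PS1+N-AS), and neither labels nor methods say that they should.

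Reversed log2 fold changes were near 0 or came with marker scaling, which moves all genes. With that scaling, APP/PS1 over WT was -0.0159 for Ctsa and -0.94 for Ctsf, APP/PS1+N-AS over APP/PS1 was 0.0298 for Ctsc and 0.46 for Ctsf, and APP/PS1+N-AS over WT was -0.0611 for Ctsa, -0.48 for Ctsf and -0.42 for Ctsk. With library numbers 1 to 6, the last comparison gave -0.0043 for Ctsf and -0.12 for Ctsk. With 1 library left out, APP/PS1 over WT ranged from -0.4741 to 0.0252 for Ctsk (above 0 without WT replicate 1 or APP/PS1 replicate 1), APP/PS1+N-AS over WT from -0.0422 to 0.4614 for Ctsk (below 0 without WT replicate 3), and APP/PS1+N-AS over APP/PS1 from -0.1153 to 0.0424 for Ctsf (above 0 without APP/PS1 replicate 1 or APP/PS1+N-AS replicates 1 or 2). The cause was not tested. With 25 to 113 reads per library, depth limits Ctsk most.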
